A study of Mus musculus with 10 samples.

Results

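The circadian clock genes described here are the 10 rows of the gene table that carry the symbols Clock, Arntl, Per1, Per2, Per3, Cry1, Cry2, Nr1d1, Nr1d2 and Dbp, out of 53379 genes in all. All 10 passed the filter on low counts. Polyadenylated RNA was sequenced from MC38 cells, a mouse colon carcinoma line, that had been grown as tumors in C57BL/6J mice for 21 days. The groups were 5 mice fed a high-fat diet and 5 mice fed a control diet, with 1 library from each mouse. In both groups the cells were sorted as positive for the fluorescent protein dTomato and negative for the leukocyte surface protein CD45, and no genetic change or drug was named in either group. The labels used here name neither the makeup of the diets nor the time on them, and give no age or sex of the mice and no hour of tumor collection.

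The mammalian clock is a loop of transcription and repression that takes about a day. CLOCK and ARNTL (also called BMAL1) bind E-boxes as a pair and drive the Per and Cry genes, whose proteins return to the nucleus and repress that pair. A linked loop runs through the nuclear receptors REV-ERBα and REV-ERBβ (Nr1d1 and Nr1d2), which repress Arntl, and the ROR receptors, which activate it at the same response elements. Dbp is an output gene, encoding a transcription factor that binds D-boxes, and in many mouse tissues its transcript peaks near the opposite phase to that of Arntl. Because these transcripts cycle, a level measured once in a tissue depends on the hour of sampling as well as on the amplitude.

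The promoter windows that bear on the results are shown first. RefSeq windows of 300 bases, from 250 before to 50 after an annotated start (build GRCm38.p6), were held for 9 of the 10 genes, in 13 windows. They were searched on both strands for the E-box CACGTG, the related E′-box CACGTT, the D-box TTATGTAA, and the REV-ERB and ROR element made of the half-site AGGTCA with AANT just before it, none of which overlapped another in the windows printed. Capitals mark the matches, and an E′-box on the other strand reads AACGTG. Cry1 and Cry2 are shown because they had the smallest adjusted p of the 10, Per3, Nr1d1 and Arntl because each represents another arm of the loop, and Ciart because it had the smallest adjusted p among the other clock-related genes.
Cry1 (chr10:85185005-85185304, minus strand): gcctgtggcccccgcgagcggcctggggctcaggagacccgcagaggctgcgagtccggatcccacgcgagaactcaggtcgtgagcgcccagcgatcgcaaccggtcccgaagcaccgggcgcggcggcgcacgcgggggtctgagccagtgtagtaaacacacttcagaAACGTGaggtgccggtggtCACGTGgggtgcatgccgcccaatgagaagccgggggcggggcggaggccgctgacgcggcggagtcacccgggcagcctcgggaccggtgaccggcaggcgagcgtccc
Cry2 (chr2:92434020-92434319, minus strand): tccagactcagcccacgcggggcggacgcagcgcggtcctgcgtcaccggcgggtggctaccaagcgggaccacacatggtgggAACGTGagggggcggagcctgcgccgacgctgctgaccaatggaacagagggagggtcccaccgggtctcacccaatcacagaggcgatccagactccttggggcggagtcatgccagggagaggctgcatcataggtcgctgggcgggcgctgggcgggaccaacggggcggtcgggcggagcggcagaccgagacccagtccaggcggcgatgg
Per3 (chr4:151044616-151044915, minus strand): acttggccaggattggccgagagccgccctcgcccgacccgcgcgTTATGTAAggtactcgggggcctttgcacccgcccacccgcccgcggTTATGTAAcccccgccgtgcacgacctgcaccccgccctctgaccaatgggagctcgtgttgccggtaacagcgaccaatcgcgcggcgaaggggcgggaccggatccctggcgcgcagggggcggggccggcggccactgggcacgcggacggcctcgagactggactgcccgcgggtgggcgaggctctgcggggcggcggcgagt
Nr1d1 (chr11:98775328-98775627, minus strand): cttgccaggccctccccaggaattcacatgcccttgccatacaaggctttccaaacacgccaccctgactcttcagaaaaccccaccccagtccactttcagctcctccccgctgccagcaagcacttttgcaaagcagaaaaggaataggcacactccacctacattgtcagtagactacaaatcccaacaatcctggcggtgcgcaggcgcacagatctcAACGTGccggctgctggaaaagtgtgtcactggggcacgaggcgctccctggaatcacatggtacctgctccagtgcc
Arntl (chr7:113207261-113207560, plus strand): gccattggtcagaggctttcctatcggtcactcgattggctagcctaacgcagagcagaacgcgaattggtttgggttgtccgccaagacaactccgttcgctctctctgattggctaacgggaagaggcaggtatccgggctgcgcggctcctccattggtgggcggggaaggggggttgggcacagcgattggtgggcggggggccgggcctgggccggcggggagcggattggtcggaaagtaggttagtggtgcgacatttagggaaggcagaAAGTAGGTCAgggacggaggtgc
Ciart (chr3:95882179-95882478, minus strand): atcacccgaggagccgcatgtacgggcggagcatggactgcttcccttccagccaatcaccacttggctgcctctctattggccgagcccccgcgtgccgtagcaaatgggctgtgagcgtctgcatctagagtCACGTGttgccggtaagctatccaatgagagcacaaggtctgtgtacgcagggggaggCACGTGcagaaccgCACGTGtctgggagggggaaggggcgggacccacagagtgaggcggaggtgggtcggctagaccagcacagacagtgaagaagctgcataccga
The Cry1 window held 1 E-box starting at base -60 and 1 E′-box at base -79, counted from the annotated start (1 is its first base and -1 the base before it). The Cry2 and Nr1d1 windows each held 1 E′-box, at -166 and -28. Per3 had 2 D-boxes, at -205 and -158, and the second Arntl window had 1 REV-ERB and ROR element, at 28. Ciart had 3 E-boxes, at -116, -58 and -44. One of the 2 Per1 windows also held an E-box, at -166, and no match was found in the windows of Clock, Nr1d2 or Dbp. Of 32851 promoter windows in the same table, 7.15% held the E-box, 4.68% the E′-box, 0.938% the D-box and 0.219% the REV-ERB and ROR element. A match describes the letters of the window and is not evidence of binding.

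**Figure D1:**
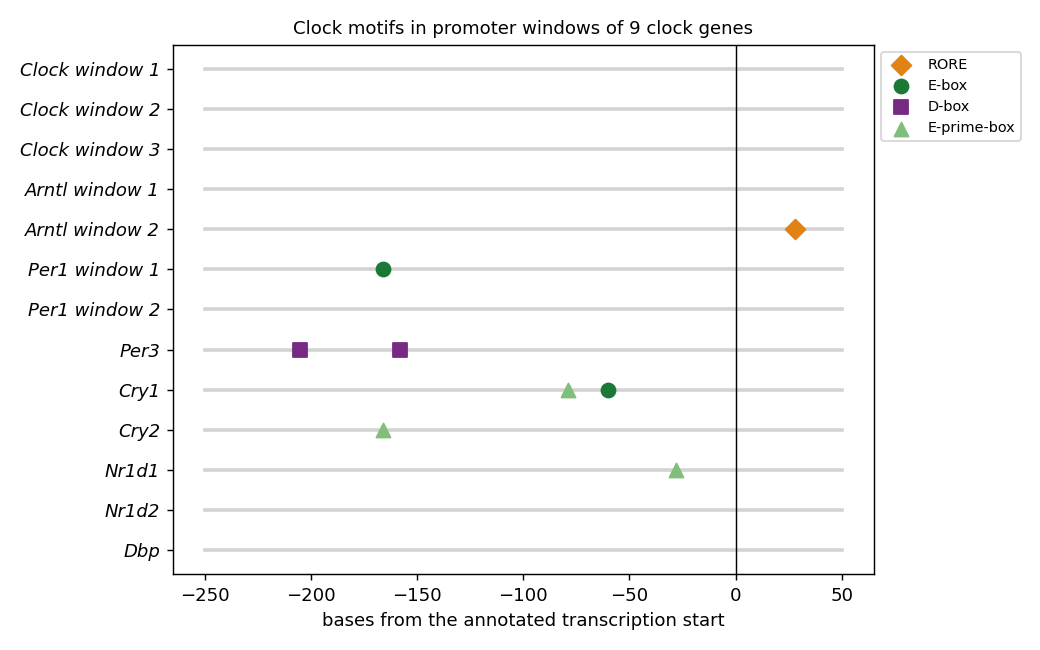
Position of motif matches in the 13 promoter windows of 9 clock genes, in bases from the annotated transcription start (the vertical line), with 1 row per window and 1 symbol per match. Cry1 has an E-box and an E′-box (E-prime-box in the legend), Per3 has 2 D-boxes, and the second Arntl window has the single REV-ERB and ROR element (RORE).

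High-fat libraries held 16513388 to 17154050 counts and control libraries 17050797 to 18653705, so a count of 3, the limit that a count of 0 allows, was worth 0.158 to 0.183 CPM (the counts of a gene scaled to a common library total with TMM factors, the unit used throughout). Every clock gene lay above that limit in every library. Markers of colon epithelium went against the carcinoma label: 7 of 8 (Krt8, Krt18, Krt19, Krt20, Epcam, Cdx2 and Vil1) fell under the filter, and the 8 together summed to 1.17 to 3.18 CPM in high-fat and 1.42 to 6.23 CPM in control libraries. The 5 fibroblast markers, Dcn, Pdgfra and Col6a3 among them, summed to 2238 to 3295 CPM in high-fat and 2531 to 3330 CPM in control libraries. Transcripts of leukocytes were present in spite of the gate, and all 10 macrophage markers were lower in high-fat libraries at an unadjusted p under 0.05 and none after adjustment in edgeR. They summed to 30.7 to 68.5 CPM in high-fat libraries and 59.4 to 472 CPM in control libraries. Control mice 3 and 4 had the highest macrophage sums, 412.5 and 472 CPM. The 8 pan-leukocyte markers summed to 14.4 to 51.1 CPM in high-fat and 19.8 to 187 CPM in control libraries, and 5 of them were lower at that unadjusted p. Endothelial markers summed to 21.5 to 29.9 CPM in high-fat and 17.7 to 25.6 CPM in control libraries. Of these, 3 fell under the filter and 2 were tested. Cdh5 was the 1 higher in high-fat libraries at that unadjusted p (edgeR adjusted p = 0.337). Adipocyte markers summed to at most 0.183 and 0.159 CPM in high-fat and control libraries. In bulk libraries fewer cells of a type and less RNA per cell cannot be told apart.

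All 10 genes were expressed. Scaled by exon length, levels over the 10 libraries were 17.6 ± 2.50 CPM per kilobase for Nr1d1, 16.8 ± 5.15 for Per1, 10.6 ± 1.76 for Cry1, 5.76 ± 0.54 for Arntl, 5.42 ± 0.99 for Nr1d2, 4.84 ± 0.59 for Cry2, 3.81 ± 0.30 for Clock, 2.27 ± 0.58 for Dbp, 0.860 ± 0.24 for Per2 and 0.846 ± 0.30 CPM per kilobase for Per3 (SD, n = 10). Neighbours in that order whose mean ± SD ranges overlapped were Nr1d1 and Per1, Per1 and Cry1, Arntl and Nr1d2, Nr1d2 and Cry2, and Per2 and Per3. The exon length joins all annotated transcripts of a gene, so it can exceed the longest transcript and lower the scaled level. It was 13727 bases for Clock and 7523 for Arntl, whose longest transcripts had 9744 and 3995. Npas2, a paralog of Clock, had 4 counts over all 10 libraries and was not tested.

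The comparison asked whether these transcripts differ between tumor cells of high-fat and control hosts. None of the 10 clock genes passed the threshold of 0.05 after Benjamini-Hochberg adjustment over all 14337 genes tested by the quasi-likelihood method of edgeR, of which 0.0628% passed. At an unadjusted p under 0.05 there were 2 clock genes, Cry1 and Cry2, both lower in high-fat libraries, against 6.62% of all genes lower at that level and 12.1% in either direction. DESeq2 and limma-voom also called 0 of the 10 after adjustment, and gave 2 and 3 at an unadjusted p under 0.05. Over all genes they gave 2057 and 1704 at that level, and edgeR 1731. The groups overlapped for each of the 10, where 2.18% of all genes tested had groups that did not (1.08% higher and 1.1% lower in high-fat libraries). The median log2 change, high-fat minus control, was -0.06 over the 10 genes, with 7 negative and 3 positive, beside 0.01 over all genes tested, of which 48.6% were negative. The median size of the change regardless of sign was 0.11 for the 10 genes and 0.10 for all genes.

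**Figure D2:**
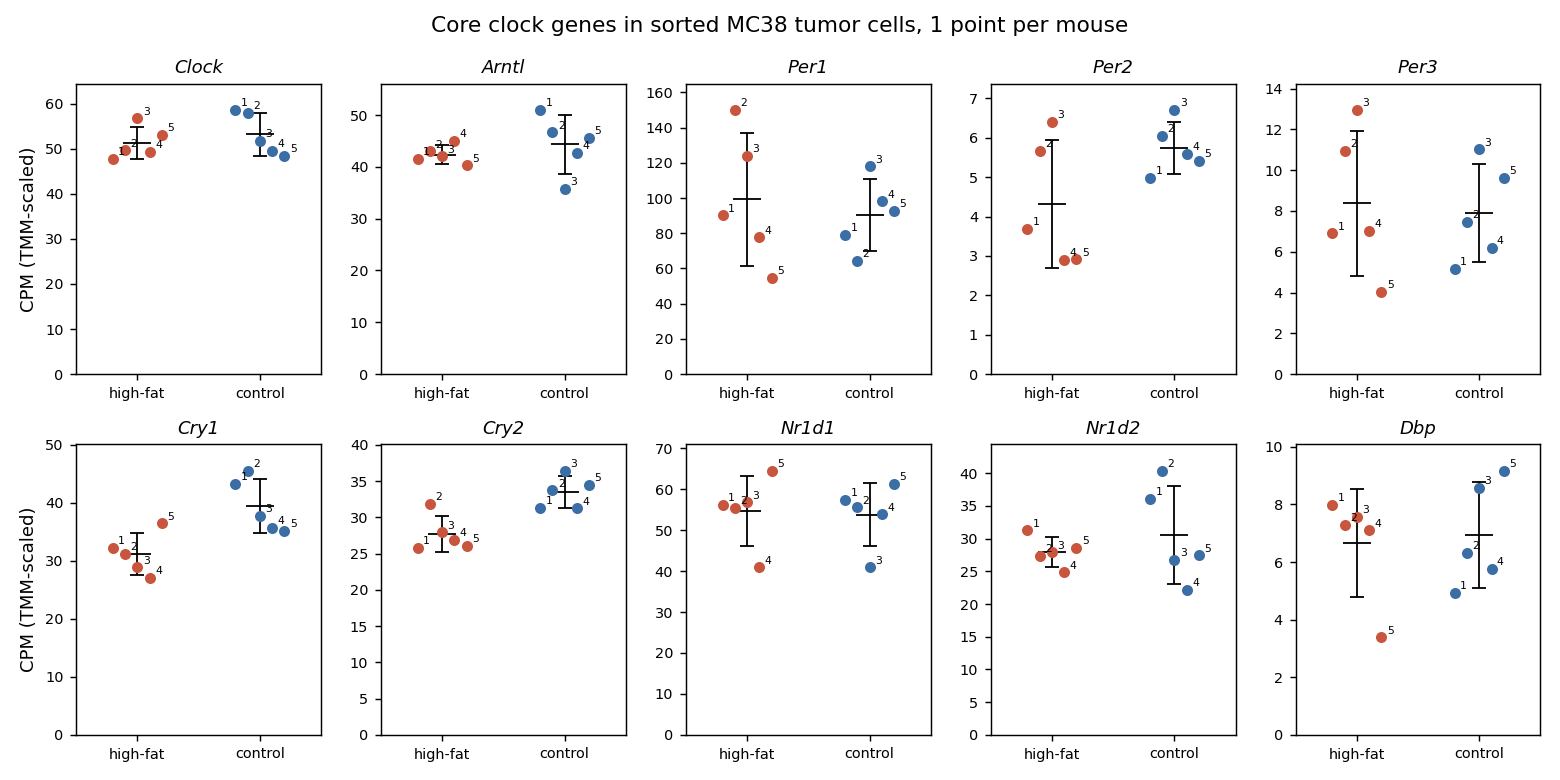
Level of each clock gene in CPM (vertical axes from 0), with 1 numbered point per mouse, high-fat at the left and control at the right of each panel, and bars for the mean and SD of 5 mice. Cry1 and Cry2 sit lower in 4 of 5 high-fat mice than in any control mouse, and high-fat mouse 5 is the lowest for Per1, Per3 and Dbp.

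The cryptochromes, the strongest repressors of the CLOCK and ARNTL pair, had the smallest adjusted p of the 10. Cry1 (ENSMUSG00000020038.10, chromosome 10, 85131700 to 85185064) stood at 32.3, 31.2, 28.9, 27.1 and 36.4 CPM in high-fat mice 1 to 5, against 43.2, 45.5, 37.8, 35.7 and 35.2 CPM in control mice 1 to 5. High-fat mouse 5 lay among the lower controls, and the other 4 high-fat mice lay below every control. The mean was 31.2 ± 3.57 CPM in high-fat and 39.5 ± 4.64 CPM in control mice (SD, n = 5 each), a log2 change of -0.34 (SE 0.10) with an edgeR adjusted p of 0.210, and an exact two-sided permutation test of this gene alone gave p = 0.0238, where 0.00794 is the smallest that 5 against 5 allows. Cry2 (ENSMUSG00000068742.11, chromosome 2, 92403646 to 92434043) stood at 25.8, 31.8, 28.0, 26.9 and 26.1 CPM in high-fat mice, against 31.3, 33.7, 36.4, 31.3 and 34.5 CPM in control mice. High-fat mouse 2 reached the lowest controls, and the other 4 were below all of them. Its mean was 27.7 ± 2.45 CPM in high-fat and 33.5 ± 2.20 CPM in control mice, a log2 change of -0.27 (SE 0.08) with an edgeR adjusted p of 0.210 (exact two-sided permutation p = 0.0238). The same permutation test, run on each of the 10, gave p from 0.127 to 0.960 for the others. These permutation p are not adjusted, and they use the values that singled out Cry1 and Cry2, so they are no separate support. Both cryptochrome windows shown above hold an E′-box. So does the Nr1d1 window, and 1 Per1 window holds an E-box, where the log2 changes were 0.03 and 0.13. Cry2 overlaps the noncoding transcript D930015M05Rik on the opposite strand over 4.67% of its exon length.

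The leukocyte-type markers described above differ in sum between libraries, with control mice 2 and 5, at 19.8 and 28.4 CPM of pan-leukocyte markers, inside the high-fat range. With the pan-leukocyte mean added to the model, Cry1 was the 1 clock gene called, at a change of -0.41 (edgeR adjusted p = 0.0456, against 0.0894 to 0.873 in the other alternatives with all or most mice and 0.147 to 0.438 with single mice left out). The Cry2 change was then -0.25 (edgeR adjusted p = 0.145). With the macrophage mean in its place the changes were -0.43 for Cry1 and -0.24 for Cry2 (edgeR adjusted p = 0.173 and 0.374). Without control mice 3 and 4 they were -0.41 and -0.26 (edgeR adjusted p = 0.109 and 0.201). Both cryptochromes kept a negative change in each of the 9 alternatives run and without each of the 10 mice in turn.

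The period genes encode the partners of the cryptochromes in the repressor complex, and Per1 also responds within minutes to stress hormones and cAMP. Per1 (chromosome 11, 69095217 to 69109960) stood at 90.2, 150.0, 123.8, 77.7 and 54.5 CPM in high-fat mice 1 to 5 and at 79.0, 64.4, 118.0, 98.1 and 92.6 CPM in control mice 1 to 5. High-fat mice held both the highest and the lowest values, so the spread within that diet covered the controls. The log2 change was 0.13 (SE 0.25) with an edgeR adjusted p of 0.885. Per2 (chromosome 1, 91415982 to 91459324) stood at 3.69, 5.68, 6.41, 2.90 and 2.92 CPM in high-fat mice and at 4.98, 6.05, 6.70, 5.60 and 5.41 CPM in control mice. High-fat mice 1, 4 and 5 were below every control and mice 2 and 3 were among them. Per2 had the largest change of the 10, -0.41 (SE 0.22), with a 95% interval from -0.85 to 0.02 and an edgeR adjusted p of 0.499. Per3 (chromosome 4, 151003652 to 151044665), the window with 2 D-boxes, stood at 6.91, 10.9, 12.9, 7.04 and 4.02 CPM in high-fat mice and at 5.16, 7.48, 11.0, 6.18 and 9.62 CPM in control mice. The groups overlapped over most of their range, with a log2 change of 0.08 (SE 0.30) and an edgeR adjusted p of 0.942.

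Clock and Arntl encode the activating pair. Clock (chromosome 5, 76209868 to 76304792) stood at 47.7, 49.7, 56.7, 49.3 and 53.0 CPM in high-fat mice and at 58.6, 57.9, 51.7, 49.5 and 48.4 CPM in control mice. The highest library was 1.23-fold above the lowest over all 10 mice. Arntl (chromosome 7, 113207465 to 113314126) stood at 41.5, 43.0, 42.0, 45.0 and 40.3 CPM in high-fat mice and at 51.0, 46.7, 35.7, 42.7 and 45.6 CPM in control mice. High-fat mice lay inside the control range, which ran 1.43-fold from control mouse 3 to control mouse 1. The log2 changes were -0.05 (SE 0.08) for Clock and -0.07 (SE 0.09) for Arntl, with 95% intervals from -0.20 to 0.10 and from -0.24 to 0.11. The corresponding highest-to-lowest folds over the 10 libraries were 3.22 for Per3, 2.75 for Per1, 2.71 for Dbp, 2.31 for Per2, 1.82 for Nr1d2, 1.68 for Cry1, 1.58 for Nr1d1 and 1.41 for Cry2. Per2, Dbp and Per3 were the most thinly counted, with 875, 1177 and 1402 counts over all libraries, while Per1 had 16354. Arntl overlaps the antisense gene Gm45355 by 33 bases.

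The REV-ERB genes feed back on Arntl. Nr1d1 (chromosome 11, 98767932 to 98775333) stood at 56.2, 55.4, 56.8, 40.9 and 64.5 CPM in high-fat mice and at 57.4, 55.5, 40.9, 53.9 and 61.3 CPM in control mice. Each diet had 1 mouse at 40.9 CPM, high-fat mouse 4 and control mouse 3, and the rest lay together, with a log2 change of 0.03 (SE 0.12) and a 95% interval from -0.22 to 0.27. Its last exon overlaps Thra on the opposite strand by 263 bases, 8.55% of its exon length, and the library kit named in the labels, NEBNext Ultra RNA, does not mark strand, so reads of that stretch cannot be told apart. Thra, a thyroid hormone receptor gene, averaged 75.9 ± 10.2 CPM in high-fat and 76.4 ± 6.89 CPM in control mice. Nr1d2 (chromosome 14, 18204054 to 18239127) stood at 31.3, 27.4, 27.9, 24.8 and 28.6 CPM in high-fat mice and at 36.1, 40.4, 26.8, 22.2 and 27.4 CPM in control mice. Control mice 1 and 2 were above all high-fat mice and control mice 3 to 5 were not, for a log2 change of -0.13 (SE 0.14) and an edgeR adjusted p of 0.799. Without control mice 3 and 4 that change was -0.31 (edgeR adjusted p = 0.248), and without control mouse 1 or control mouse 2 it was -0.060 or -0.0060 (edgeR adjusted p = 0.972 and 0.998). With the pan-leukocyte or the macrophage mean in the model the Nr1d2 change was -0.27 or -0.46 (edgeR adjusted p = 0.247 and 0.207).

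Dbp, the output gene (chromosome 7, 45705088 to 45710203), stood at 7.98, 7.29, 7.57, 7.10 and 3.38 CPM in high-fat mice and at 4.92, 6.31, 8.57, 5.76 and 9.17 CPM in control mice. High-fat mice 1 to 4 lay close together inside the control range, and high-fat mouse 5 lay below every control. The log2 change was -0.06 (SE 0.23) with a 95% interval from -0.51 to 0.39, and it was 0.11 without high-fat mouse 5. Dbp overlaps Sphk2, a sphingosine kinase gene, on the opposite strand over 539 bases, 18.0% of its exon length. Sphk2 averaged 38.3 ± 2.09 CPM in high-fat and 40.2 ± 3.11 CPM in control mice, and reads of the shared stretch cannot be told apart here either.

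Beyond the 10 genes, 37 other clock-related genes were listed, of which 34 were tested and none passed the adjusted threshold in edgeR. At an unadjusted p under 0.05, 6 were lower and 1 higher in high-fat mice. That is 17.6% lower, beside 6.62% of all genes tested, and 2.94% higher, beside 5.45%. Of the 34, 79.4% had a negative change, beside 48.6% of all genes tested. Some other fits called more of the 34 after adjustment, and more of all genes, of which 9 passed in the edgeR test above. With the pan-leukocyte mean in the edgeR model 6 of the 34 passed, beside 557 of all genes. DESeq2 called 3, beside 326 of all genes, and edgeR without control mice 3 and 4 called 3, beside 276. With the macrophage mean 2 passed, beside 240 of all genes. Without the filter, without control mouse 3 and with mouse number as a block 1 passed in each, beside 53, 27 and 16 of all genes. The remaining fits called 0 of the 34. These were RLE normalization, limma-voom and library size in the edgeR model, beside 9, 5 and 0 of all genes, and each other single mouse left out. The 6 genes that were lower at an unadjusted p under 0.05, before these changes to the fit, were Ciart, Nfil3, Rora, Rorb, Bhlhe41 and Prkaa2. The 1 higher at that level was Arntl2.

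Ciart, also called Chrono, encodes a repressor of the CLOCK and ARNTL pair and has 3 E-boxes in the window shown above. The windows of Nfil3, Rora, Arntl2 and Prkaa2 held no match, that of Bhlhe41 held 1 E-box, and 1 Rorb window held 1 E′-box. Ciart stood at 13.4, 11.7, 10.6, 10.7 and 11.1 CPM in high-fat mice, against 24.8, 21.1, 13.3, 14.8 and 19.9 CPM in control mice. High-fat mouse 1 was level with control mouse 3, and the other high-fat mice were below every control, with a log2 change of -0.71 (SE 0.16) and an edgeR adjusted p of 0.141. Ciart passed in some other fits, among them DESeq2 (adjusted p = 0.00656), edgeR without control mouse 3 (adjusted p = 0.0468) and edgeR with the macrophage mean in the model (adjusted p = 0.0148). Over all alternatives its adjusted p ran from 0.00399 to 0.813, the highest with library size in the edgeR model. Nfil3, which encodes a repressor that competes with DBP at D-boxes, stood at 27.3, 22.6, 14.5, 21.5 and 24.3 CPM in high-fat mice, against 49.0, 45.0, 24.9, 28.6 and 48.1 CPM in control mice. The log2 change was -0.83 (SE 0.21) with an edgeR adjusted p of 0.183. The lowest controls for Nfil3, mice 3 and 4, were the ones richest in macrophage transcripts. They were also the lowest controls for Ciart and Prkaa2, and not for Rora, Rorb, Bhlhe41 or Arntl2. Nfil3 passed with DESeq2 (adjusted p = 0.0127), with the macrophage mean in the edgeR model (adjusted p = 0.0200) and in edgeR without control mice 3 and 4 (adjusted p = 0.00631), all with negative changes. Over all alternatives its adjusted p ran from 0.00195 to 0.819.

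The ROR receptors oppose the REV-ERBs at Arntl. Rorb averaged 7.41 ± 1.47 CPM in high-fat and 11.3 ± 1.93 CPM in control mice, a log2 change of -0.60 (SE 0.15) with an edgeR adjusted p of 0.183. Its groups overlapped, with high-fat values from 5.98 to 9.47 CPM and control values from 8.92 to 14.2 CPM. Rorb passed in DESeq2 (adjusted p = 0.0239) and with the pan-leukocyte mean in the edgeR model (adjusted p = 0.0378), and over all alternatives its adjusted p ran up to 0.819. Rora was near the bottom of what could be tested, at 0.523 ± 0.14 CPM in high-fat and 1.06 ± 0.34 CPM in control mice (edgeR adjusted p = 0.209). Bhlhe41, also called Dec2, an E-box repressor, stood at 23.8, 11.4, 12.1, 13.8 and 9.56 CPM in high-fat mice, against 23.4, 21.8, 14.3, 23.8 and 23.4 CPM in control mice (edgeR adjusted p = 0.323). High-fat mouse 1 and control mouse 3 each lay with the other diet. Bhlhe41 overlaps the unclassified transcript Gm43909 on the opposite strand over 19.1% of its exon length. Its more abundant paralog Bhlhe40 averaged 268 ± 43.2 and 296 ± 24.5 CPM in high-fat and control mice (edgeR adjusted p = 0.676).

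Arntl2, a paralog of Arntl, averaged 18.8 ± 4.62 CPM in high-fat and 13.5 ± 2.58 CPM in control mice, a log2 change of 0.47 (SE 0.17) with an edgeR adjusted p of 0.286. High-fat mouse 3 held its highest value, 26.7 CPM, and without that mouse the change was 0.31 (edgeR adjusted p = 0.459). Arntl2 passed with the pan-leukocyte mean in the edgeR model (adjusted p = 0.0424), and in the other alternatives its adjusted p ran from 0.124 to 0.916. Prkaa2, a catalytic subunit of AMPK, the energy-sensing kinase that marks cryptochromes for degradation, averaged 7.73 ± 1.14 CPM in high-fat and 11.3 ± 3.83 CPM in control mice (edgeR adjusted p = 0.316). The more abundant catalytic subunit Prkaa1 averaged 161 ± 10.8 and 159 ± 9.58 CPM in high-fat and control mice (edgeR adjusted p = 0.955). Prkaa2 passed with the pan-leukocyte mean in the edgeR model (adjusted p = 0.0410) and without control mice 3 and 4 (adjusted p = 0.0272), and over all alternatives its adjusted p ran up to 0.873. Of the genes that act on the stability of the repressors, Csnk1d, encoding a casein kinase that phosphorylates PER proteins, averaged 319 ± 9.49 CPM in high-fat and 330 ± 10.1 CPM in control mice. The D-box binding relatives of Dbp, Tef and Hlf, had log2 changes of -0.14 (SE 0.13) and -0.22 (SE 0.24).

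**Figure D3:**
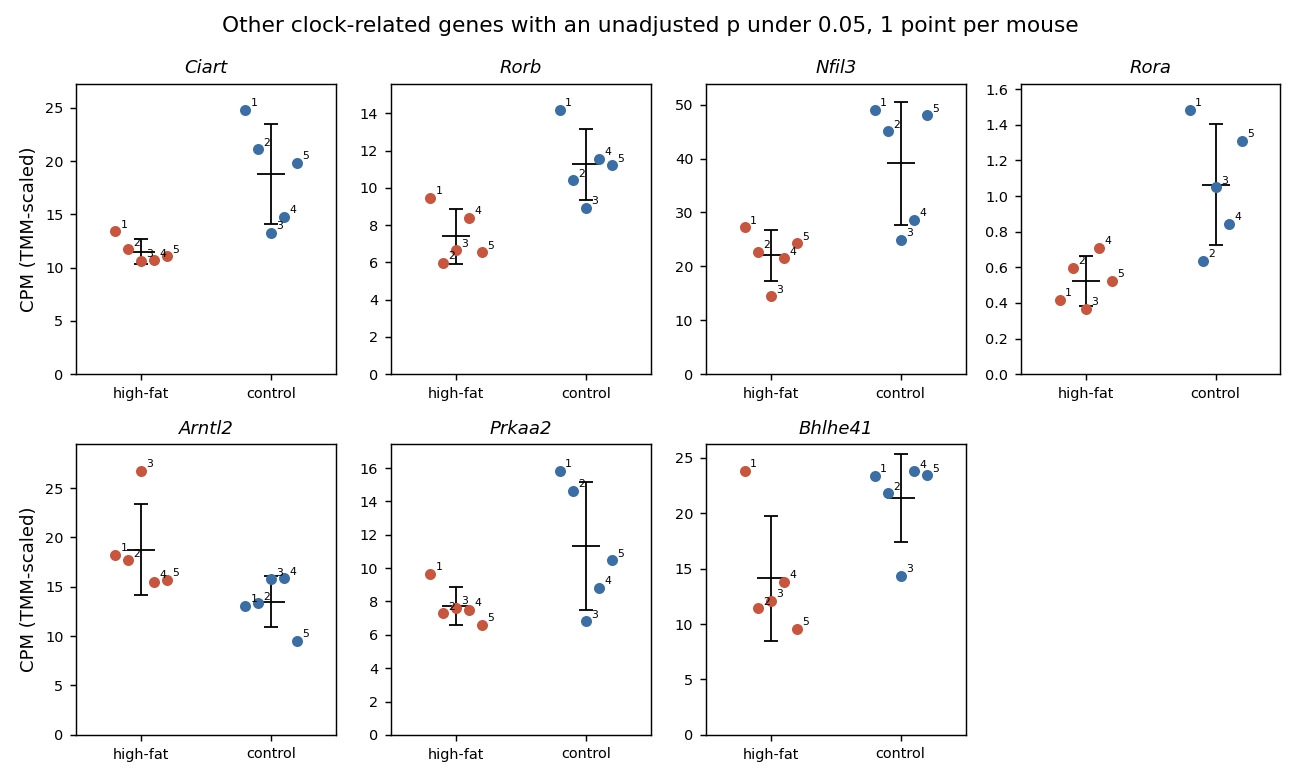
Level in CPM of the 7 other clock-related genes with an unadjusted p under 0.05, drawn with 1 numbered point per mouse, high-fat at the left of control, and bars for the mean and SD of 5 mice. Ciart runs from 10.6 to 13.4 CPM in high-fat mice and from 13.3 to 24.8 CPM in control mice, and Arntl2 is the gene with the higher high-fat mean.

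**Figure D4:**
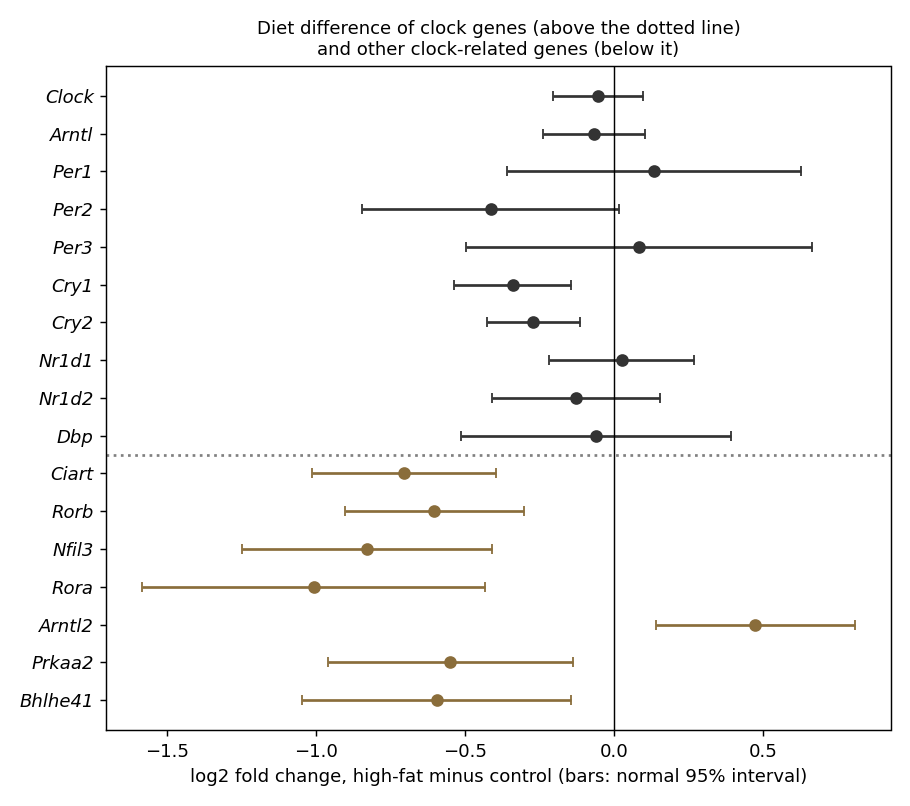
Log2 fold change, high-fat minus control, of the 10 clock genes (above the dotted line) and the 7 other clock-related genes (below it, ordered by p), with bars for the normal 95% interval from the edgeR SE. Cry1 and Cry2 are the only 2 of the 10 clock genes whose bars do not reach 0, and none of the 17 genes passed after adjustment over all genes.

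Set against each other within each library, the arms of the loop gave overlapping balances in the diets. The mean log2 CPM of Clock and Arntl minus that of Nr1d1, Nr1d2, Per1, Per2, Per3 and Dbp was 1.31, 1.09, 1.12, 1.63 and 1.85 in high-fat mice 1 to 5 and 1.71, 1.47, 1.04, 1.43 and 1.19 in control mice 1 to 5. The difference in means was 0.03, against an SD of 0.33 in high-fat and 0.26 in control mice. With Npas2, nearly absent here, counted among the activators, it was 0.06, and leaving out single mice moved that value between -0.088, without high-fat mouse 5, and 0.16, without control mouse 1. These are descriptions of genes chosen with earlier results known, and carry no test. The cryptochromes were left out of that balance because Cry1 peaks between the arms. Their mean log2 CPM ran from 4.76 to 4.98 in high-fat and from 5.07 to 5.30 in control mice. These ranges do not overlap, while the groups of Cry1 and of Cry2 each do. The mean combines the genes that these same values singled out, so it is no separate support.

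Across the 10 mice Dbp followed Per3, and the relation of Arntl and Dbp did not pass the test. Of 6 gene pairs compared on log2 CPM, 1 passed a permutation test of Pearson's r after Benjamini-Hochberg adjustment over the pairs, Dbp with Per3. Its r was 0.84 over 10 libraries (permutation p = 0.00147, adjusted p = 0.00882) and its Spearman rho was 0.75 (permutation p = 0.0167, adjusted p = 0.100). With diet means removed r was 0.84. Without the 2 libraries farthest from the median Dbp, control mouse 1 and high-fat mouse 5, r was 0.56. Without high-fat mouse 5 alone r was 0.73 (permutation adjusted p = 0.164), so the passing of the threshold rests on that mouse. Within control mice alone r was 0.96, and within high-fat mice 0.78 (n = 5 each, not tested). High-fat mouse 5 was lowest of the 10 in Dbp, Per1 and Per3.

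The pair whose transcripts are out of phase in many tissues, Arntl with Dbp, had r = -0.18 (permutation p = 0.600, adjusted p = 0.600) and rho = -0.21 (permutation p = 0.559, adjusted p = 0.632), and r was 0.50 without control mice 1 and 3. Without high-fat mouse 5 it was -0.62 (permutation adjusted p = 0.220), so its size and sign depend on which mice are counted. Arntl with Nr1d1 had r = 0.34 (permutation adjusted p = 0.439) and rho = 0.18 (permutation adjusted p = 0.632), and r was -0.39 without control mice 1 and 3. Dbp with Nr1d1 had r = -0.42, Nr1d1 with Nr1d2 r = 0.33 and Clock with Arntl r = 0.36, each with a permutation adjusted p of 0.439. Their rho values were -0.21, 0.61 and 0.25 (permutation adjusted p = 0.632, 0.201 and 0.632), and their r without the 2 libraries farthest from the median of the first gene were -0.01, 0.02 and -0.36. Within high-fat and within control mice (n = 5 each, not tested), r was -0.95 and 0.88 for Arntl with Nr1d1. It was 0.58 and -0.60 for Arntl with Dbp, and -0.50 and -0.29 for Dbp with Nr1d1. For Nr1d1 with Nr1d2 it was 0.73 and 0.27, and for Clock with Arntl -0.34 and 0.51. Over all 45 pairs of the 10 genes r ran from -0.43, for Per1 with Cry1, to that of Dbp with Per3. These pairs share libraries and depth.

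**Figure D5:**
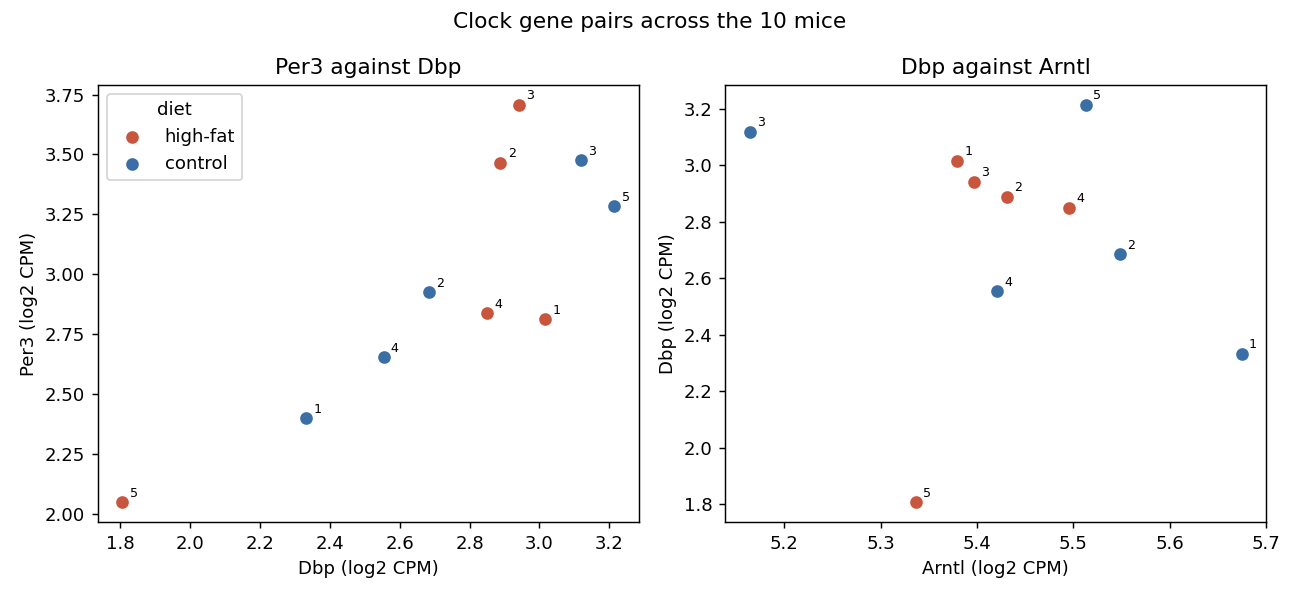
Log2 CPM of Per3 against Dbp (left) and of Dbp against Arntl (right), with 1 point per mouse numbered within its diet, high-fat in red and control in blue. Per3 and Dbp have r = 0.84 over the 10 mice, with high-fat mouse 5 lowest on both axes, while Dbp and Arntl have r = -0.18.

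Cues known to act on clock genes were read from short lists. Of 7 immediate early genes, Fos, Egr1 and Nr4a1 among them, none had an unadjusted p under 0.05, and their summed level ran from 3248 to 6251 CPM in high-fat and from 4489 to 5907 CPM in control mice. High-fat mouse 5 had the lowest sum and high-fat mouse 2 the highest, as they did for Per1; the part of that response in the Per1 values was not tested. Of 7 tested glucocorticoid-responsive genes, Per1 included, none had an unadjusted p under 0.05, and Fkbp5 averaged 79.2 ± 5.69 CPM in high-fat and 73.3 ± 2.61 CPM in control mice. Among 5 tested temperature-responsive genes, 1 had an unadjusted p under 0.05, Hspa1b. The cold-inducible Cirbp and Rbm3 had log2 changes of -0.11 (SE 0.13) and 0.13 (SE 0.13). The chaperone genes Hsph1 and Hspa8 had changes of 0.34 (SE 0.19) and 0.04 (SE 0.11), and their groups overlapped. Hspa1b, a heat-inducible chaperone gene, was at 35.2, 21.4, 14.9, 19.5 and 14.8 CPM in high-fat mice, against 8.19, 9.66, 6.76, 10.7 and 5.81 CPM in control mice. Every high-fat value of Hspa1b lay above every control value, and its edgeR adjusted p was 0.102. Its near-identical copy Hspa1a fell under the filter, so the division of reads between the copies is uncertain.

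The genes whose levels followed Dbp most closely, once diet means were removed, were Kctd21, Cyhr1 and Cdk5, with Pearson r of 0.96 each over the 10 libraries among 10837 genes compared. For Arntl they were Sema6a, Tm2d1 and Gm3470, with r of 0.94, 0.92 and 0.92. None of the 6 is a clock gene of either list. These are the highest of many correlations over 10 points and are given as a description, without a test.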

How the data were processed

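The authors deposited raw read counts per gene, as whole numbers with 1 column per mouse, and each column name is the description label of 1 sample. The submitters' processing notes name BWA 0.7.12 and DESeq2 1.24.0, cutadapt 1.15 and FastQC 0.11.5, and GRCm38 and mm10, without roles. The sources used here name no counting program, annotation or strand setting. If BWA placed the reads, those crossing exon junctions can be lost.

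Of 53379 gene identifiers, 53274 matched GENCODE M21 (GRCm38) without the version suffix, which gave symbols, coordinates and exon lengths. Exact 50-base windows of the longest transcript occurring in transcripts of other genes, on either strand, made up 27.5% for Dbp, 8.23% for Nr1d1, 6.00% for Nr1d2, 2.73% for Cry2 and 0% for the other 6.

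The test on counts was that of edgeR 4.0.16 under R 4.3.3 (TMM, filterByExpr, robust quasi-likelihood, high-fat minus control, Benjamini-Hochberg over 14337 genes, which held 99.9% of counts). The standard error is the absolute change over the square root of F, intervals are normal 95%, and log2 CPM used a prior count of 2. Correlations used 100000 permutations. DESeq2 1.42.0, limma-voom 3.58.1, covariates, a replicate block and left-out mice were alternatives. The fit was tested on simulated counts. No libraries agreed within sampling noise (lowest chi-square per degree of freedom within a diet 7.67), and each mouse counted as 1 replicate. Limits from counts cover counting error only.

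The members and gene lists were chosen with earlier results of these data known. The rule named the 10 members, other clock-related genes with an unadjusted p under 0.05 (at most 8), exon-overlapping partners, cue-list genes past that p, and the 3 genes most correlated with Dbp and with Arntl. Bhlhe40, Prkaa1, Csnk1d, Tef, Hlf, Fkbp5, Cirbp, Rbm3, Hsph1 and Hspa8 were named after their values were seen.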

Additional observations from a re-analysis of the deposited data

Results flagged for a closer look

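Among 36 sets of 5 values checked (each named clock gene and the balance of the arms, in each diet), 3 had a highest or lowest library standing apart from the other 4, where chance gives about 5% of sets. Dbp in high-fat mouse 5 was 3.38 CPM, with the other high-fat mice between 7.10 and 7.98 CPM. Arntl2 in high-fat mouse 3 was 26.7 CPM, with the others between 15.5 and 18.2 CPM. Bhlhe41 in control mouse 3 was 14.3 CPM, with the others between 21.8 and 23.8 CPM.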

How the results depend on the processing

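Of the 10 clock genes, 0 passed after adjustment in edgeR with RLE normalization, without the filter, with library size or the macrophage mean in the model, with the replicate block, without control mice 3 and 4, and without each mouse in turn (0 to 0), and in DESeq2 and limma-voom. The exception was the pan-leukocyte covariate, with 1 (Cry1). At an unadjusted p under 0.05 there were 4 without control mice 3 and 4 (Cry1, Cry2, Nr1d2 and Arntl). All genes at that level then numbered 2296, against 1731 with all 10 mice and no covariate. With single mice left out there were 2 to 3 clock genes, beside 1227 to 2152 of all genes. Other clock-related genes at that level numbered 5 to 9 over all settings, beside 817 to 2724 of all genes. Small changes turned sign: with library size as a covariate Per1 was -0.0059 and Per3 -0.19, and Nr1d1 was -0.051 with the pan-leukocyte level, -0.12 with the macrophage level and -0.085 without control mice 3 and 4; the cause was not tested. With single mice left out, Per1 ran from -0.056 to 0.29, Per3 from -0.13 to 0.26, Nr1d1 from -0.056 to 0.12, Nr1d2 from -0.22 to -0.0060 and Dbp from -0.16 to 0.11. Cry1 stayed between -0.43 and -0.28 and Cry2 between -0.32 and -0.24 in all settings. The number of correlated pairs was 0 to 1 with single mice left out. Mouse numbers are shared labels only: same-numbered libraries correlated between -0.36 and 0.33, and 1 of 5 correlated best with its own number. With the replicate block, 3 clock genes had an unadjusted p under 0.05, beside 1646 of all genes. The Cry1 change was then -0.34 and the Nfil3 change -0.81 (edgeR adjusted p = 0.0249). Over all genes, 9 passed, beside 53 without the filter, 326 in DESeq2, 5 in limma-voom, 557 and 240 with the pan-leukocyte and macrophage means, 16 with the block, 276 without control mice 3 and 4, 0 with library size and 1 to 27 with single mice left out. The SE was largest for Per3, Per1, Dbp and Per2, and of these Per1 alone had many counts.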
